A study of Mus musculus with 39 samples.

Results

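The genes described here are 35 transcripts of the hypoxia response and of glycolysis, followed across bulk RNA from mouse melanoma tumours. They were chosen by name, as known hypoxia-induced and glycolytic genes, with earlier results of these data known. Their shares set beside those of all genes are therefore descriptions and not independent support. All 35 were found among the 39179 genes of the count table. All 35 also passed the filter on low counts, which left 15070 genes. The study injected Braf-mutated melanoma cells into C57BL/6 mice, began treatment on day 7 after injection, and sequenced 39 tumours after 2 or 5 days of treatment. Vehicle tumours received DMSO, PEG400 and water at 200 µl per dose. EPAT tumours received antagonists of EP2 and EP4, receptors for prostaglandin E2, at 30 mpk from a 3 mg/mL stock. Anti-PD-1 tumours received an antibody against the T cell checkpoint receptor PD-1 at 200 µg per dose, and combination tumours received both. The dose volume of 200 µl is recorded for vehicle, EPAT and combination tumours, and 0 for anti-PD-1 tumours. Comparisons of anti-PD-1 alone with vehicle or combination tumours therefore also differ in this recorded volume. Each treatment-by-day group held 5 libraries, except anti-PD-1 on day 2 with 4. All groups share strain and tumour type in the labels, which give neither the cell line's name, the injection site nor the animals' age. Nothing in them says that replicates are different animals, so every p-value rests on the spread among the libraries, which need not be the spread among animals. The extraction protocol names day 4, which is neither time point, and tumours were grouped by their labelled day. The first number in the sample titles mostly goes with a single group. Anti-PD-1 day 5 replicate 5, EPAT day 5 replicate 1 and EPAT day 2 replicate 5 share it with libraries of the other day. What the title numbers mean is not stated.

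Cells sense oxygen through prolyl hydroxylases, which mark the alpha subunits of hypoxia-inducible factor (HIF) for destruction by the VHL ubiquitin ligase. When oxygen is scarce, HIF persists, pairs with ARNT and binds promoters and enhancers at short elements with the core RCGTG. Its targets raise glucose uptake, glycolysis, acid export, vessel growth and removal of mitochondria, and they include the hydroxylases themselves. Solid tumours often hold poorly perfused regions in which these genes are active, and glycolytic genes also respond to growth signals and to immune cell activation.

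The HIF core was searched for in the 250 bases before each annotated start, as ACGTG or GCGTG on either strand, in RefSeq promoter windows of GRCm38.p6. Windows were available for 31 of the 35 genes, and Slc2a3, Bnip3l, Ero1l and Ndrg1 had none. Of these, 29 (93.5%) held at least 1 core in any of their windows, against 59.7% of the 10957 tested genes with a window. The form ACGTG was present in 18 (58.1%) against 24.5%, and GCGTG in 22 (71.0%) against 48.2%. The median GC content of the windows was 61.9% for the members and 59.6% for the tested genes, and some genes had more than 1 window. Gpi1 and Tpi1 held neither form. A match is a description of the letters and not a bound site. The promoters below are those of genes on which the expression results turn. Pfkp, Hk2 and Ddit3 were among the 4 genes with the smallest p on day 2, and Car9, Adm and Ankrd37 were among the genes furthest from the rest in 1 library. Capitals mark the cores, with CACGT and CACGC being the 2 forms read on the opposite strand. Pfkp lies at chr13:6648772-6649021 (minus strand), Hk2 at chr6:82774455-82774704 (minus strand), Ddit3 at chr10:127290543-127290792 (plus strand), Car9 at chr4:43506776-43507025 (plus strand), Adm at chr7:110627407-110627656 (plus strand) and Ankrd37 at chr8:45999851-46000100 (minus strand). All 6 sequences run toward the start site.
Pfkp: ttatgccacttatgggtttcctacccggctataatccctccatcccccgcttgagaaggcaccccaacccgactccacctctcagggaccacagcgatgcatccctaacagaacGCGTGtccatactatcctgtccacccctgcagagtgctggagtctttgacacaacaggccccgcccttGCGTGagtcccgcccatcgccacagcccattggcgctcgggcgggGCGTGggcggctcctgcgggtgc
Hk2: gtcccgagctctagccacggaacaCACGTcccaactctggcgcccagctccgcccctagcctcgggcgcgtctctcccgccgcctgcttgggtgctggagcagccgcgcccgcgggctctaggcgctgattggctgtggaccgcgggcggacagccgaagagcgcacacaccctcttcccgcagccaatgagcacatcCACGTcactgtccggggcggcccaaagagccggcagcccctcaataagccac
Ddit3: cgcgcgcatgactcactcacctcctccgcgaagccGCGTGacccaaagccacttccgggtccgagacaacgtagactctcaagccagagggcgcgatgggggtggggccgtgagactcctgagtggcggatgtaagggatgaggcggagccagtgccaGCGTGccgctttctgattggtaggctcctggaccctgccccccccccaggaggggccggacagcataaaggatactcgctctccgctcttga
Car9: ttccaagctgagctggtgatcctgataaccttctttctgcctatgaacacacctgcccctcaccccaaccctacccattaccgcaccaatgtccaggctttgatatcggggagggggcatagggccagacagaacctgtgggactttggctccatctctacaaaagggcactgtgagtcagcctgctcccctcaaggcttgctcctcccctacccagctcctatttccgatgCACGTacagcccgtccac
Adm: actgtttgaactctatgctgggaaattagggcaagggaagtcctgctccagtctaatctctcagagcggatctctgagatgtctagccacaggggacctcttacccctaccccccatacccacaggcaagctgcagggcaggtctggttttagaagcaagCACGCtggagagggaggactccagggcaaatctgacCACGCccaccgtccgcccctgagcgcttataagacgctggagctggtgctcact
Ankrd37: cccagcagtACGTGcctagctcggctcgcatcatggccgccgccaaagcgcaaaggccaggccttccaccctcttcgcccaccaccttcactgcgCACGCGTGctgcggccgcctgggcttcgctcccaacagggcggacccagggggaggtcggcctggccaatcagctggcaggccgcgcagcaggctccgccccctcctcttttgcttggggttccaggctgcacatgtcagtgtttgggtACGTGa

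Pfkp carried 3 GCGTG cores in this window and Ankrd37 carried 4 cores, 2 of which overlap. Hk2 carried 2 ACGTG cores, Ddit3 and Adm carried 2 GCGTG cores each, and Car9 carried a single ACGTG core near its start.

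Total counts per library ranged from 8385741 to 15558113. The libraries were QuantSeq 3' libraries, so levels are given as CPM, which corrects each count for library depth, with no gene length term, and they are compared between samples and not between genes. Melanocyte identity was weakly represented. Mitf stood at 30.5 to 82.4 CPM, while Tyr, Tyrp1, Dct, Mlana and Slc45a2 were at 0 in 32 to 39 of the 39 libraries. Lung transcripts (Sftpc, Sftpa1 and Scgb1a1) ranged from 0.164 to 156 summed CPM, and 23 libraries were classed as having them. The others, called libraries without lung transcripts below, held low levels and not none. Combination day 2 replicate 2, among them, was at 1.19 summed CPM. Skeletal muscle transcripts ranged from 5.58 to 16100 summed CPM. In bulk tumours, fewer cells of a type and less RNA per cell cannot be told apart. Counts of Pgk1, Pgam1 and Eno1 are uncertain, because near-identical copies took counts of their own. Over all libraries Pgk1-rs7 held 17969 counts against 2961 for Pgk1, and Pgam1-ps2 held 7706 against 1380 for Pgam1. Eno1b held 24767 against 30738 for Eno1. Gapdh is treated with them, since the handling of multimapping reads is not given. Its copies Gapdh-ps14 (85 counts) and Gapdh-ps15 (10 counts) held few beside its 11846. Ddit3, Pfkp, Ankrd37, Tpi1 and Gapdh overlap a gene on the other strand, and the strand setting of the counting is not given in the sources used here.

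For these 35 genes, 1 library stood apart from the rest. Combination day 2 replicate 2 had the highest level of all 39 libraries for 30 of the 35 genes, whereas 6.26% of all tested genes peaked there. The 5 exceptions were Slc2a3, Pfkfb3, Pfkfb4, Aldoc and Pkm. The mean deviation of the 35 genes from their own means was 1.48 (log2 CPM) in that library and between -0.38 and 0.54 in the other 38. Its genes furthest above the mean of the other 4 combination libraries were P4ha2, a collagen prolyl hydroxylase subunit, at 8.62 times, and Ero1l, an endoplasmic reticulum oxidase, at 7.11 times. Car9, a carbonic anhydrase that handles acid outside the cell, was at 5.9 times and Adm, the vasodilator adrenomedullin, at 5.54 times. Its depth of 11018946 counts, its mitochondrial share of 7.38% and its 17930 detected genes lay within the range of the other libraries. T cell transcripts were the lowest of all, at 14.7 summed CPM against 52.2 to 593 elsewhere, with none of the 9 T cell markers at 0. Neutrophil transcripts were at 46.5 summed CPM, below all but 1 library, with Ly6g at 0. Fibroblast transcripts (20300 summed CPM) and red cell transcripts (308 summed CPM) were above those of 36 libraries. The part of these cell types in the level of the hypoxia genes was not tested. The main results on this group are therefore given with and without that library. Apart from the split by lung transcripts, fold changes, tests and marker lists given once include it. Over all tested genes, other libraries were more extreme. Anti-PD-1 day 5 replicate 4 held the highest level of 12.5% of genes and the lowest of 11%, with 8 members lowest there. Combination day 5 replicate 1 held the highest of 9.88% and the lowest of 16.7%, with 5 members lowest there.

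**Figure D1:**
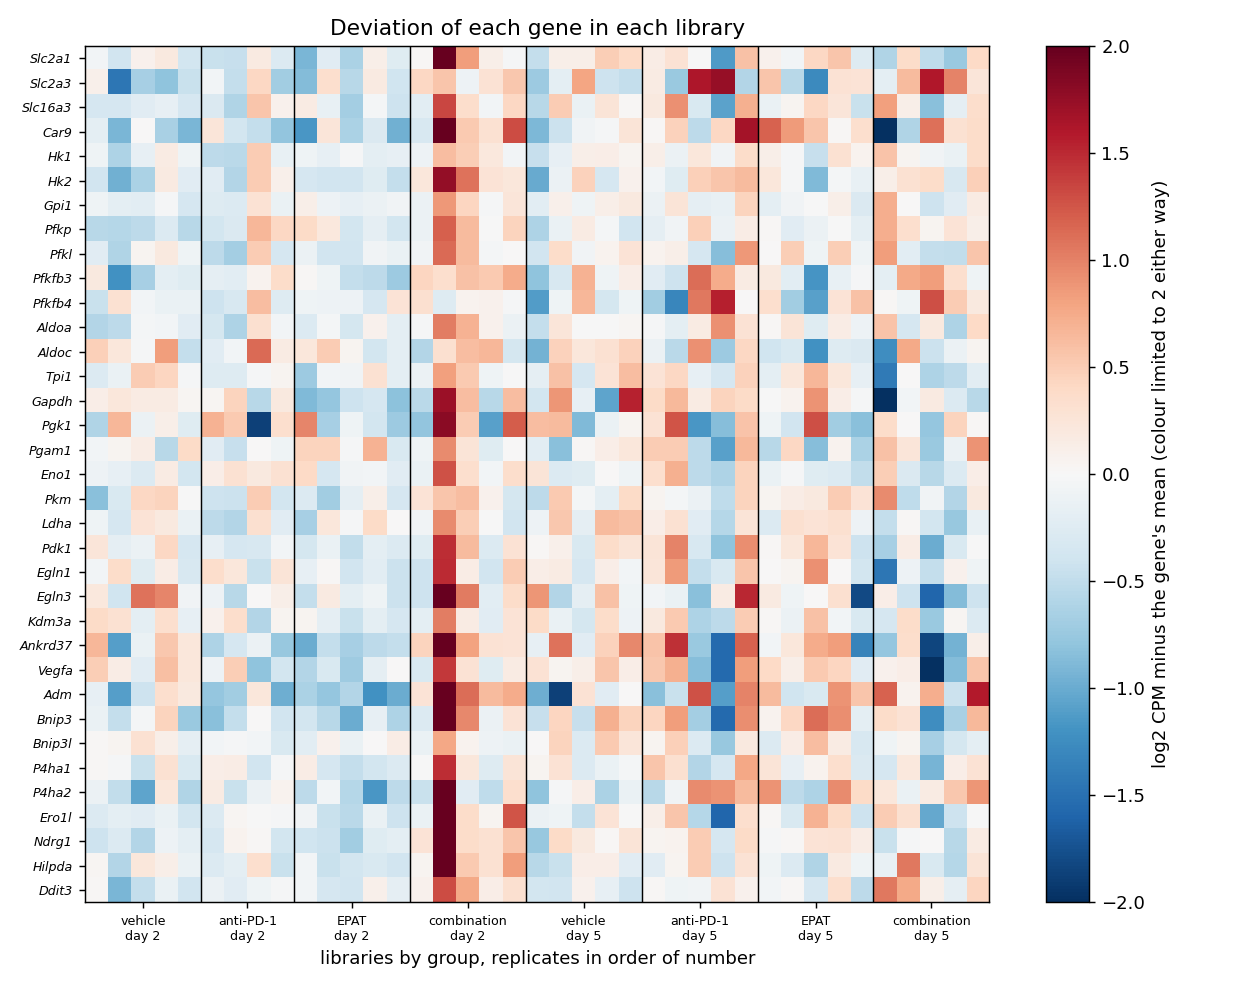
Deviation of each of the 35 genes (rows, by role) from its mean over the 39 libraries (columns, by group), in log2 CPM, red above and blue below. The second column of the combination day 2 block, replicate 2, lies above the mean for 34 of 35 genes and is the darkest red, with the highest level of 30 of them.

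The same library widened the spread of its group. Combination tumours of day 2 averaged 0.44 ± 0.63 (SD, n = 5, log2 CPM), and 0.18 ± 0.28 (n = 4) without replicate 2. Vehicle tumours of day 2 averaged -0.13 ± 0.18 (n = 5), anti-PD-1 tumours -0.13 ± 0.12 (n = 4) and EPAT tumours -0.26 ± 0.1 (n = 5). Within the combination group the remaining libraries were at -0.09, 0.5, 0 and 0.32, so 2 of the 4 lay above every vehicle library and 2 lay inside the vehicle range of -0.35 to 0.13. On day 5 the 4 group means lay between -0.06 and 0.1, and their libraries overlapped.

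**Figure D2:**
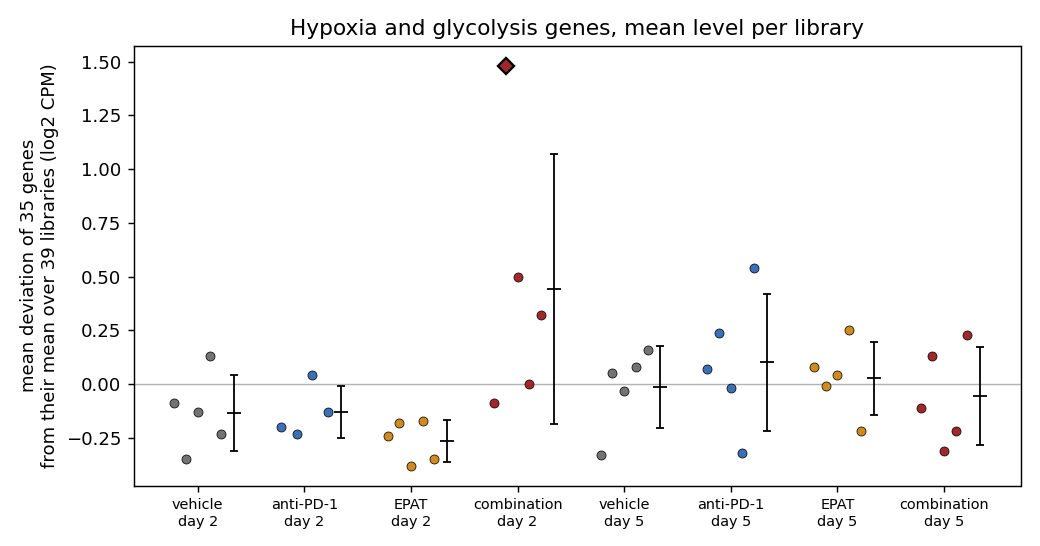
Mean deviation of the 35 genes per library (points, log2 CPM) in the 8 groups, with group mean and SD beside each. The diamond is combination day 2 replicate 2 at 1.48, and the other 38 libraries lie between -0.38 and 0.54.

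Members did not vary together to the same degree. The correlation of a gene with the mean of the other members over 39 libraries was highest for Slc2a1 (r = 0.9), Bnip3, Ero1l and Ndrg1 (0.83 each), and Pdk1 and Hilpda (0.8 each). It was near 0 for Slc2a3 (0.01) and negative for Pfkfb4 (-0.22). The median over members was 0.6, and 0.44 over the 38 libraries without replicate 2. Slc2a1 (0.82), Bnip3 (0.8) and Pdk1 (0.75) kept high values there, and P4ha2 went from 0.6 to 0.26. These libraries share depth scaling and tissue mixture, and the values are descriptions. A median of 25.8% of a member's variance lay between groups, and 21.6% without replicate 2, against 21.1% and 21.7% for all tested genes.

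Combination and vehicle tumours of day 2 were compared first, which measures both agents together. Levels were higher with the combination for 34 of 35 genes, with a median log2 fold change of 0.58 against -0.02 for all genes, but no member passed the test. The closest were Ndrg1, a stress and hypoxia-induced gene linked to differentiation, at a log2 fold change of 1.18 ± 0.24 (SE) and Pfkp, the platelet isoform of phosphofructokinase, at 1.00 ± 0.21. Ddit3, the stress transcription factor CHOP, was at 0.94 ± 0.21 and Hk2, the inducible hexokinase, at 1.21 ± 0.28. Without replicate 2 the same direction held for 28 of 35 genes and the median was 0.29.

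By edgeR's quasi-likelihood test, with p adjusted by Benjamini-Hochberg across the 15070 genes, 0 members and 0% of all genes were called. At an unadjusted p under 0.05 stood 20 of 35 members against 10.2% of all genes. The adjusted p was 0.0562 for both Ndrg1 and Pfkp, 0.0745 for Ddit3 and 0.0858 for Hk2 and Ero1l. Limma-trend on the deposited log2 values called 0 members. DESeq2 called 7 (Car9, Hk2, Pfkp, Adm, Ero1l, Ndrg1 and Ddit3) against 0.564% of all genes. DESeq2 and limma-trend were not run without replicate 2. Without replicate 2, edgeR called 0 members and 0.133% of 15040 genes, with 10 members at an unadjusted p under 0.05 against 10% of all genes. The adjusted p was then 0.0707 for Ndrg1, 0.0725 for Pfkp, 0.0889 for Ddit3 and 0.111 for Hk2. For Ero1l, Car9 and Adm, also called by DESeq2, the edgeR adjusted p was then 0.337, 0.386 and 0.508. Without combination replicate 1 or replicate 4, Ndrg1 and Pfkp were called by edgeR, with an adjusted p of 0.0492 and 0.0496 for each gene, against 0.0133% and 0.0199% of all genes.

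In 5 of 35 members every combination library exceeded every vehicle library, namely Hk2, Pfkp, Pfkfb3, Ndrg1 and Ddit3, against 1.94% of all genes. Without replicate 2 the same 5 members separated, against 4.99% of all genes. The sizes of these differences still leaned on replicate 2 for Ndrg1 (1.18 with it and 0.70 without) and Hk2 (1.21 and 0.87). The 23 libraries with lung transcripts gave a smaller difference. Within them (3 libraries a group) the median over members was 0.13, and within libraries without lung transcripts (2 a group, replicate 2 among them) it was 1.12. Other tissue lists moved beside the members. Adipocyte markers were lower with the combination in 8 of 8 (22.6 to 119 summed CPM against 13.6 to 1570), keratinocyte markers in 5 of 5 tested (4.39 to 5.32 against 7.5 to 158), and skeletal muscle markers higher in 12 of 12 (17.8 to 787 against 9.73 to 520). Macrophage markers were higher in 9 of 9 (2780 to 4560 summed CPM against 2170 to 3120). T cell markers were higher in 9 of 9 (14.7 to 236 against 52.2 to 184), and cell cycle genes lower in 17 of 17 (2080 to 2670 against 2600 to 3490). None of these markers passed the test. With the muscle score as a covariate the median was 0.71 and edgeR called Pfkp (1.09, adjusted p = 0.0499), against 0.0133% of all genes. The part of the other tissues was not tested.

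**Figure D3:**
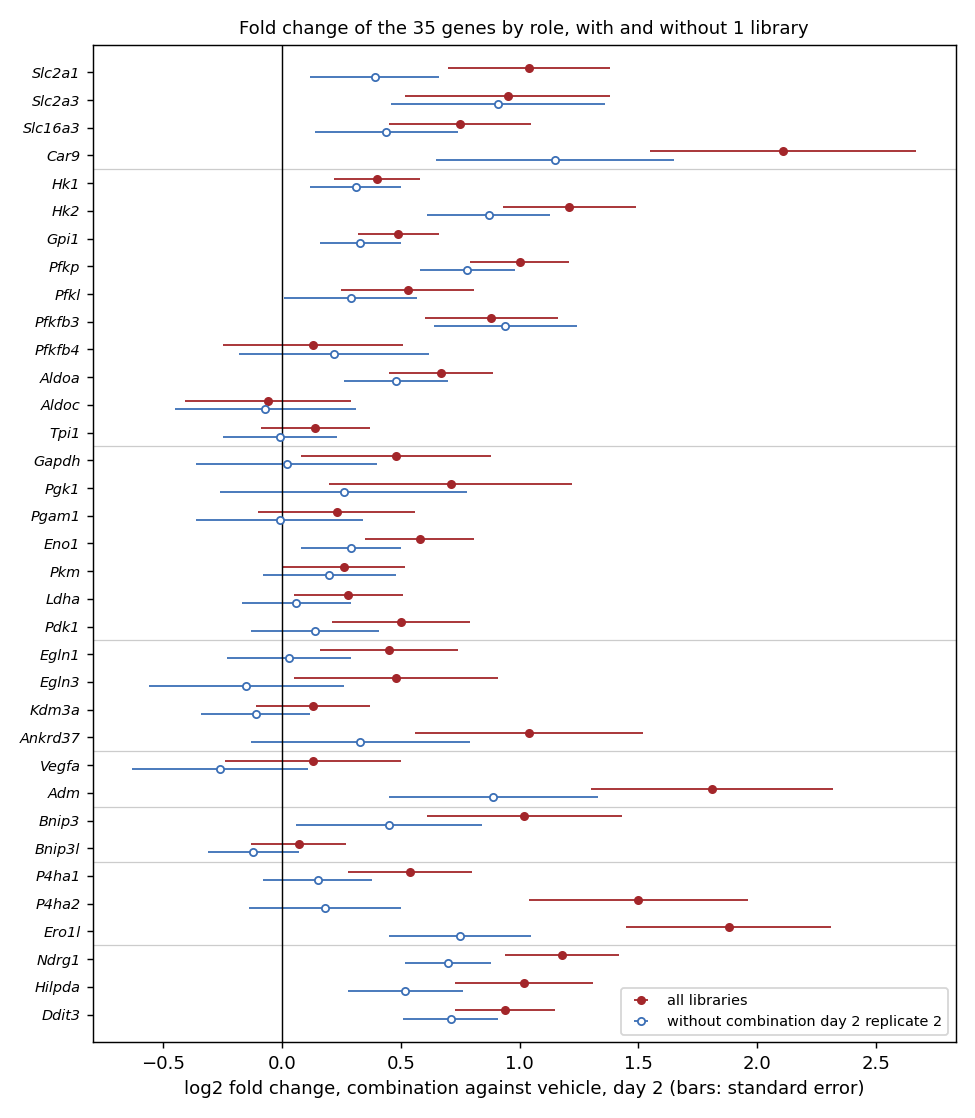
Log2 fold change (combination against vehicle, day 2) with standard error for the 35 genes grouped by role, over all libraries (filled) and without combination day 2 replicate 2 (open). Ndrg1 goes from 1.18 to 0.70 and P4ha2 from 1.5 to 0.18, while Pfkfb3 stays near 0.9 (0.88 and 0.94).

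Ndrg1 (chr15:66929318-66969640, minus strand, GRCm38) had the smallest p of the members. In the vehicle libraries of day 2 it was at 75.2, 83.3, 67.3, 93.9 and 87.5 CPM, and in the combination libraries at 122, 401, 129, 125 and 148 CPM. Anti-PD-1 libraries of day 2 were at 79.4, 105, 102 and 78.6 CPM and EPAT libraries at 76, 74.5, 61.7, 85.4 and 87.3 CPM. All 5 combination libraries were above all 14 other libraries of that day, and replicate 2 was far above the other 4. On day 5 Ndrg1 stood at 59.2, 131, 115, 102 and 121 CPM with vehicle and at 74.3, 98.4, 101, 68.2 and 113 CPM with the combination. It was at 105, 106, 144, 79.2 and 132 CPM with anti-PD-1 and at 98.5, 103, 122, 123 and 112 CPM with EPAT. The 4 groups overlapped on day 5.

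Pfkp (chr13:6579768-6648777, minus strand) catalyses the committed step of glycolysis. On day 2 it was at 46.6, 46.1, 48, 56.4 and 46.8 CPM with vehicle and at 63.2, 158, 107, 68.3 and 93 CPM with the combination. It was at 53.5, 55.9, 108 and 92.2 CPM with anti-PD-1 and at 89.7, 79.4, 53.2, 60.6 and 53.2 CPM with EPAT. Vehicle libraries were narrow and low, and the 3 treated groups overlapped each other. On day 5 it was at 44.8, 62.2, 77.2, 66.8 and 52.4 CPM with vehicle and at 113, 87.2, 71.1, 82.8 and 74.8 CPM with the combination. It was at 60.5, 65.5, 96, 63.1 and 76.3 CPM with anti-PD-1 and at 69.4, 58.8, 63.4, 68.3 and 60 CPM with EPAT. Vehicle and combination overlapped on day 5, while the lowest combination library lay above the highest EPAT library.

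Ddit3 (chr10:127290774-127296288, plus strand) encodes CHOP, which is induced through ATF4 when protein folding or amino acid supply fails. On day 2 it was at 50.3, 26.1, 35.3, 44.9 and 37.9 CPM with vehicle and at 52.6, 122, 83.5, 53.9 and 61.8 CPM with the combination. It was at 45.9, 42.1, 46.3 and 48.8 CPM with anti-PD-1 and at 47.6, 38.9, 37.7, 52.9 and 43.5 CPM with EPAT. The lowest combination library was just above the highest vehicle library and below the highest EPAT library. On day 5 it was at 38.4, 37.8, 52.2, 44.1 and 36.8 CPM with vehicle and at 102, 83.3, 53.5, 43.5 and 66.5 CPM with the combination. It was at 49.9, 46.4, 46.9, 60.2 and 52 CPM with anti-PD-1 and at 47.6, 50.3, 39.1, 62.3 and 34.5 CPM with EPAT. Combination libraries reached higher than the others on day 5, with overlap at the low end.

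Hk2 (chr6:82725025-82774454, minus strand) encodes the inducible hexokinase. On day 2 it was at 63.1, 42.3, 53.4, 93.8 and 70.4 CPM with vehicle and at 96, 281, 176, 99.6 and 96 CPM with the combination. It was at 70.2, 54.7, 117 and 88.8 CPM with anti-PD-1 and at 65.7, 63.1, 63.6, 69.5 and 59.1 CPM with EPAT. Combination libraries lay above vehicle and EPAT libraries and overlapped those of anti-PD-1, where 1 library reached 117 CPM. On day 5 it was at 40.8, 76.6, 114, 65.8 and 87.6 CPM with vehicle and at 89.1, 102, 107, 66 and 115 CPM with the combination. It was at 79.3, 69.2, 115, 122 and 129 CPM with anti-PD-1 and at 96.3, 81, 44.4, 80.3 and 74.3 CPM with EPAT. The day 5 groups overlapped.

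**Figure D4:**
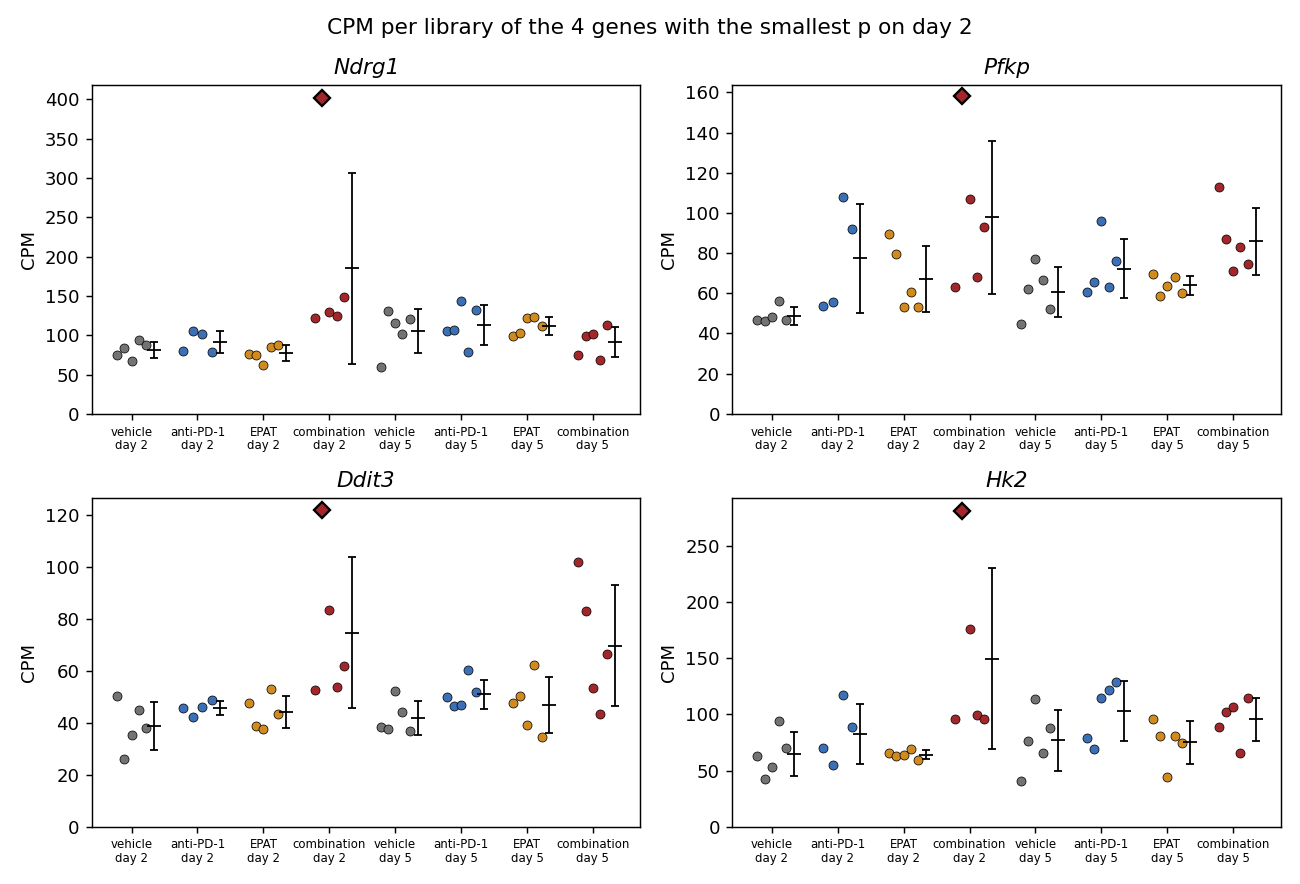
CPM of Ndrg1, Pfkp, Ddit3 and Hk2 in each library (points) of the 8 groups, with group mean and SD beside them. The diamond is combination day 2 replicate 2, the highest library for each of the 4 genes (401, 158, 122 and 281 CPM).

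Among genes of glucose uptake and acid export, all 4 members were higher with the combination on day 2, with a median log2 fold change of 1.0, and 0.68 without replicate 2. Slc2a1, the glucose transporter GLUT1, was at 52.9, 41.6, 57.7, 62.7 and 42.5 CPM with vehicle and at 55.4, 266, 97.2, 59.4 and 54.1 CPM with the combination. It was at 40.1, 39.8, 62 and 45.4 CPM with anti-PD-1 and at 29, 46.7, 35.1, 59.2 and 45.9 CPM with EPAT. Combination replicate 2 was 3.99 times the mean of the other 4, and 1 of those 4 exceeded the highest vehicle library. The log2 fold change of Slc2a1 was 1.04 ± 0.34 (adjusted p = 0.228, edgeR), and 0.39 ± 0.27 without replicate 2. On day 5 Slc2a1 was at 39.5, 59.6, 59.5, 76.9 and 72.1 CPM with vehicle and at 36.1, 70.6, 38.4, 32.7 and 72 CPM with the combination. It was at 60.6, 66.9, 54.5, 24.8 and 81.8 CPM with anti-PD-1 and at 57.6, 52.3, 72.6, 80.6 and 45.8 CPM with EPAT, and the groups overlapped. Slc2a3, the high-affinity transporter GLUT3, rested less on replicate 2, with a log2 fold change of 0.95 ± 0.43 that was 0.91 without replicate 2 (adjusted p = 0.436 over all libraries). Car9 was at 1.73, 0.999, 2.01, 1.23 and 0.992 CPM with vehicle and at 1.58, 18.2, 2.96, 2.53 and 5.22 CPM with the combination. Slc16a3, the lactate exporter MCT4, was at 87 to 97.8 CPM with vehicle and 94.9 to 277 CPM with the combination.

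In upper glycolysis, 9 of 10 members were higher, with a median of 0.51, and 8 with a median of 0.32 without replicate 2. Pfkfb3, which makes the activator of phosphofructokinase, was at 19.2 to 50.9 CPM with vehicle and 56.2 to 74.8 CPM with the combination. Replicate 2 was the lowest combination library for Pfkfb3, and the log2 fold change was 0.88 ± 0.28 with it and 0.94 ± 0.3 without it (adjusted p = 0.228 and 0.138). Pfkfb4, its paralogue, was at 0.13 ± 0.38. Aldoa, aldolase A, was at 442 to 642 CPM with vehicle and 612 to 1330 CPM with the combination, a log2 fold change of 0.67 ± 0.22. Gpi1, glucose phosphate isomerase, was at 0.49 ± 0.17, Hk1, the constitutive hexokinase, at 0.4 ± 0.18, and Pfkl, the liver phosphofructokinase, at 0.53 ± 0.28. Without replicate 2 Pfkfb4 was at 0.22, Aldoa at 0.48, Gpi1 at 0.33, Hk1 at 0.31 and Pfkl at 0.29. Aldoc (-0.06 ± 0.35) was the only member lower with the combination. Tpi1, triose phosphate isomerase, was at 0.14 ± 0.23 and at -0.01 without replicate 2.

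In lower glycolysis and pyruvate fate, all 7 members were higher, with a median of 0.48, but 1 had an unadjusted p under 0.05, and the median was 0.14 without replicate 2. Ldha, which turns pyruvate into lactate, was at 344, 286, 440, 413 and 333 CPM with vehicle and at 346, 701, 512, 362 and 278 CPM with the combination. It was at 252, 243, 455 and 310 CPM with anti-PD-1 and at 230, 422, 359, 474 and 366 CPM with EPAT. Combination replicate 2 was the highest library, and replicate 5 was below every vehicle library. The log2 fold change of Ldha was 0.28 ± 0.23 (adjusted p = 0.728), and 0.06 ± 0.23 without replicate 2. On day 5 Ldha was at 339, 527, 321, 563 and 546 CPM with vehicle and at 261, 371, 284, 214 and 328 CPM with the combination. It was at 400, 448, 309, 244 and 436 CPM with anti-PD-1 and at 300, 455, 438, 455 and 340 CPM with EPAT. Pdk1, the kinase that holds pyruvate back from mitochondria, was at 30.6 to 52 CPM with vehicle and 31.9 to 109 CPM with the combination. Pkm, pyruvate kinase, was at 0.26 ± 0.26. Eno1 (0.58 ± 0.23), Gapdh (0.48 ± 0.4), Pgk1 (0.71 ± 0.51) and Pgam1 (0.23 ± 0.33) are among the genes whose counts copies may share. Leaving these 4 genes out, the median over members was 0.67. Without replicate 2, Eno1 was at 0.29, Gapdh at 0.02, Pgk1 at 0.26 and Pgam1 at -0.01.

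The oxygen sensing and feedback genes were higher in 4 of 4, with a median of 0.47, and in 2 of 4 with a median of -0.04 without replicate 2. Egln3, an oxygen-dependent prolyl hydroxylase, was at 0.48 ± 0.43 with that library and -0.15 ± 0.41 without it. Egln1, the main HIF hydroxylase, went from 0.45 to 0.03, and Kdm3a, a histone demethylase, from 0.13 to -0.11. Ankrd37, a small HIF target of unsettled function, was at 12.3, 3.5, 6.99, 11.3 and 9.02 CPM with vehicle and at 10.5, 46.4, 13.6, 9.42 and 9.37 CPM with the combination. Outside replicate 2, the combination libraries of Ankrd37 overlapped those of vehicle.

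Of the vessel genes, Vegfa, the main endothelial growth factor, did not separate the groups. Vegfa was at 127, 101, 77.4, 137 and 106 CPM with vehicle and at 72.8, 240, 111, 76.1 and 102 CPM with the combination. It was at 84.3, 127, 51.7 and 69.8 CPM with anti-PD-1 and at 60.2, 73, 55.3, 79.7 and 90.9 CPM with EPAT. The log2 fold change of Vegfa was 0.13 ± 0.37 (adjusted p = 0.94), and -0.26 ± 0.37 without replicate 2. On day 5 Vegfa was at 111, 93.9, 98.2, 133 and 99.3 CPM with vehicle and at 96.4, 99.8, 22.2, 49.5 and 133 CPM with the combination. It was at 132, 148, 50.1, 30.8 and 161 CPM with anti-PD-1 and at 120, 97.9, 130, 122 and 77.3 CPM with EPAT, with overlap throughout. Adm was at 5.43, 2.75, 4.5, 7.69 and 7.03 CPM with vehicle and at 7.41, 56.2, 13.3, 9.58 and 10.3 CPM with the combination, a log2 fold change of 1.81 ± 0.51, and 0.89 ± 0.44 without replicate 2.

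Bnip3 and Bnip3l direct mitochondria to autophagy. Bnip3 was at 69.6 to 158 CPM with vehicle and 95.4 to 504 CPM with the combination, a log2 fold change of 1.02 ± 0.41, and 0.45 ± 0.39 without replicate 2. Bnip3l was at 0.07 ± 0.2, and at -0.12 without it. In the collagen and protein folding group, all 3 members were higher, and the median went from 1.5 to 0.18. Ero1l, which forms disulfide bonds, was at 37.1, 39.5, 38.4, 41 and 35.1 CPM with vehicle and at 40.8, 450, 58.1, 47 and 107 CPM with the combination. The Ero1l log2 fold change of 1.88 ± 0.43 became 0.75 ± 0.3 without replicate 2. P4ha1, a collagen prolyl hydroxylase subunit, went from 0.54 to 0.15. Hilpda, which keeps lipid in droplets by inhibiting lipase, was at 44.5, 28.7, 50.5, 47.2 and 39.7 CPM with vehicle and at 45, 188, 62.7, 53.4 and 77.7 CPM with the combination. With Ndrg1 and Ddit3, Hilpda made up the stress and lipid droplet group, whose median was 1.02 and 0.7 without replicate 2.

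The remaining members are given by their ranges in CPM on day 2, vehicle first and combination after. For uptake and upper glycolysis these were Slc2a3 (1.87 to 5.73 against 4.98 to 7.98), Hk1 (49.7 to 86.2 against 71.8 to 118), Gpi1 (128 to 158 against 148 to 293), Pfkl (44.6 to 76.8 against 64.2 to 149), Pfkfb4 (5.43 to 9.24 against 6.23 to 9.4), Aldoc (3.43 to 8.73 against 3.16 to 7.76) and Tpi1 (135 to 231 against 150 to 288). For lower glycolysis they were Eno1 (48.6 to 70.9 against 57.2 to 153), Gapdh (22.7 to 25.8 against 15 to 72.8), Pgk1 (3.62 to 8.99 against 2.53 to 19.8), Pgam1 (1.81 to 3.61 against 2.29 to 5.41) and Pkm (399 to 973 against 557 to 1090). For the HIF feedback, mitophagy and collagen genes they were Egln1 (55.8 to 90 against 52.4 to 197), Egln3 (8.37 to 23.7 against 8.32 to 53.8), Kdm3a (34.4 to 51.1 against 33.5 to 80.3), Bnip3l (73.5 to 102 against 75.8 to 142), P4ha1 (53.7 to 90.6 against 61.3 to 203) and P4ha2 (7.8 to 19 against 11.4 to 124). In all 18 the ranges of the groups overlapped, and the upper end of the combination range was replicate 2 in all but Pfkfb4, Aldoc and Pkm.

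The combination was next set against each single agent on day 2. Against EPAT, 34 of 35 members were higher, with a median of 0.73 and 26 at an unadjusted p under 0.05, against 7.36% of all genes. No member was called by edgeR (0% of all genes). Ndrg1 was at 1.27 ± 0.24 (adjusted p = 0.104), Adm at 2.51 ± 0.52 and Ero1l at 1.95 ± 0.43 (adjusted p = 0.175 each). DESeq2 called 5 members (Hk2, Adm, Ero1l, Ndrg1 and Hilpda) against 0.133% of all genes, and limma-trend 0. Neither was run without replicate 2. Without replicate 2, 33 members were higher, the median was 0.36, and edgeR called 0 (0% of all genes), with 12 at an unadjusted p under 0.05 against 4.76% of all genes. Every combination library exceeded every EPAT library for 6 members, Hk2, Pfkfb3, Ankrd37, Adm, Ndrg1 and Hilpda, against 1.32% of all genes. Without replicate 2 the same 6 members did so, against 2.4% of all genes. Leaving out combination replicate 1, 3 or 4 called Ndrg1, with log2 fold changes of 1.38, 1.37 and 1.38, against 0.00664% of all genes in each fit.

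Against anti-PD-1, 34 of 35 members were higher with the combination, with a median of 0.53 and 15 at an unadjusted p under 0.05, against 4.35% of all genes. None was called by edgeR (0% of all genes), DESeq2 or limma-trend. The smallest p belonged to Ndrg1 (1.02 ± 0.26), Adm (2.15 ± 0.56) and Ero1l (1.71 ± 0.46), with an adjusted p of 0.925 each. Without replicate 2, 31 members were higher, the median was 0.27 and 4 had an unadjusted p under 0.05, against 2.38% of all genes, with 0 called (0% of all genes). The groups did not overlap for Ankrd37, Adm, Ndrg1 and Ddit3, against 0.883% of all genes. Without replicate 2 Pfkfb3 joined them, against 1.55% of all genes. These comparisons share the combination libraries with the one against vehicle, so they are no separate support for it.

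On day 2 the single agents gave medians near that of all genes. With anti-PD-1 the median over members was 0.05 with 19 of 35 higher, and with EPAT it was -0.09 with 13 higher. Pfkp had the smallest p in both, at 0.67 ± 0.22 with anti-PD-1 (adjusted p = 0.524) and 0.46 ± 0.21 with EPAT (adjusted p = 0.782). With anti-PD-1, Eno1 (0.38 ± 0.24) and Egln3 (-0.6 ± 0.47) followed. With EPAT, Gapdh (-0.78 ± 0.4) and Vegfa (-0.61 ± 0.37) followed. EdgeR called 0 members and 0% of all genes in each, and DESeq2 and limma-trend called 0. At an unadjusted p under 0.05 stood 1 member with anti-PD-1, against 7.12% of all genes, and 1 with EPAT, against 6.23%. Skeletal muscle markers were higher in 12 of 12 in both, with medians of 3.31 and 3.06, and their part was not tested. Both comparisons share the vehicle libraries. Whether the combination differed from the sum of the single agents on the log2 scale was tested as an interaction. The dose volume, recorded as 0 for anti-PD-1 alone, does not cancel in it, and its part was not tested. The median interaction over members was 0.64 on day 2, with 34 of 35 positive, and 14 had an unadjusted p under 0.05 against 7.28% of all genes. Adm (2.86 ± 0.75, adjusted p = 0.475), Ankrd37 (2.46 ± 0.72) and Hilpda (1.35 ± 0.42) had the smallest p, and 0 members were called (0% of all genes) by edgeR, DESeq2 or limma-trend. Without replicate 2 the median was 0.36, with 4 members at an unadjusted p under 0.05 against 5.27% of all genes, and 0 called (0% of all genes).

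On day 5 the combination was set against vehicle again. The median over members was 0.03 with 19 of 35 higher, and 8 members had an unadjusted p under 0.05, against 16.5% of all genes. Ddit3 was at 0.74 ± 0.21 (adjusted p = 0.171), Tpi1 at -0.72 ± 0.24 (0.182) and Ldha at -0.66 ± 0.23 (0.197). EdgeR called 0 members and 0.0265% of all genes, and DESeq2 and limma-trend called 0. Leaving out vehicle replicate 3 called Ddit3, at 0.83 (edgeR, adjusted p = 0.0488), and in that fit 1.36% of all genes were called. In 0 members did the groups separate, against 0.65% of all genes upward and 0.916% downward. By role, 8 of 10 upper glycolysis genes were higher (median 0.18), while 0 of 4 oxygen sensing genes were (median -0.55). Against anti-PD-1 the median was -0.18, with Tpi1 at -0.64 ± 0.24, Pdk1 at -0.68 ± 0.29 and Ddit3 at 0.45 ± 0.21. There 5 members had an unadjusted p under 0.05 against 6.31% of all genes, and edgeR called 0 members and 0.0199% of all genes. Against EPAT the median was -0.04, with Tpi1 at -0.66 ± 0.24, Ddit3 at 0.58 ± 0.21 and Pfkfb3 at 0.6 ± 0.28. There 4 members had an unadjusted p under 0.05 against 12.7% of all genes, and 0 were called (0% of all genes). Every combination library exceeded every EPAT library for 1 member, Pfkp, against 0.929% of all genes. DESeq2 and limma-trend called 0 members in both.

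The single agents on day 5 gave medians of 0.16 for anti-PD-1 (27 of 35 higher) and 0.03 for EPAT (20 higher). Slc2a3 (0.94 ± 0.42), P4ha2 (0.74 ± 0.46) and Pfkfb4 (0.59 ± 0.38) had the smallest p with anti-PD-1, where adjusted p was 0.645 or more. Aldoc (-0.65 ± 0.36), Car9 (0.87 ± 0.55) and Adm (0.77 ± 0.5) did so with EPAT. One member had an unadjusted p under 0.05 with anti-PD-1, against 7.15% of all genes, and 0 with EPAT, against 1.7%. EdgeR called 0 members and 0% of all genes in each, and DESeq2 and limma-trend called 0. The interaction on day 5 had a median of -0.14, with Pdk1 (-0.77 ± 0.4), Car9 (-1.37 ± 0.77) and Egln1 (-0.73 ± 0.41) first. For that interaction 0 members had an unadjusted p under 0.05 against 3.1% of all genes, and 0 were called (0% of all genes) by edgeR, DESeq2 or limma-trend.

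Between days, combination tumours were lower on day 5 than on day 2 for 32 of 35 members, with a median of -0.59, and -0.18 without replicate 2. Ndrg1 was at -1.02 ± 0.24 (adjusted p = 0.128, edgeR), Ero1l at -1.67 ± 0.43 (0.197) and Egln3 at -1.51 ± 0.45 (0.232). EdgeR called 0 members and 0.0133% of all genes, with 16 at an unadjusted p under 0.05 against 11.7% of all genes. DESeq2 called Ndrg1 and Ero1l, against 0.226% of all genes, and limma-trend called 0. Neither was run without replicate 2. Without replicate 2, 3 members (Ndrg1 at -0.52, Tpi1 at -0.58 and Egln3 at -0.84) had an unadjusted p under 0.05 against 10.2% of all genes, and edgeR called 0 members and 0.00665% of all genes. Other tissue markers differed between these days. Higher on day 5 were 8 of 8 fibroblast markers (10200 to 16900 summed CPM against 4590 to 20300 on day 2) and 8 of 8 endothelial markers (275 to 425 against 165 to 284). So were 9 of 9 T cell markers (143 to 434 against 14.7 to 236), 12 of 12 skeletal muscle markers (299 to 2960 against 17.8 to 787) and 6 of 7 tested neutrophil markers (216 to 287 against 46.5 to 261). No marker passed the test, and their part in the difference was not tested. The medians of the other groups were positive. The median was 0.14 for vehicle, 0.28 for anti-PD-1 and 0.25 for EPAT. In vehicle tumours Ndrg1 (0.37 ± 0.24), Pfkp (0.31 ± 0.21) and Ldha (0.34 ± 0.23) had the smallest p, with 0 members at an unadjusted p under 0.05 against 5.49% of all genes. In anti-PD-1 tumours Slc2a3 (0.98 ± 0.45), Ankrd37 (1.02 ± 0.53) and Pdk1 (0.58 ± 0.31) did, with 1 against 6.98%. In EPAT tumours Bnip3 (1.07 ± 0.41), Adm (1.23 ± 0.51) and Ndrg1 (0.54 ± 0.24) did, with 5 against 7.23%. In these 3 comparisons edgeR called 0 members and 0% of all genes, and DESeq2 and limma-trend called 0.

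Whether a treatment effect against vehicle differed between days was tested directly. For the combination the median difference (day 5 minus day 2) was -0.61, and -0.3 without replicate 2, with Ndrg1 (-1.40 ± 0.34, adjusted p = 0.423), Ero1l (-1.85 ± 0.6) and Ankrd37 (-2 ± 0.69) first. At an unadjusted p under 0.05 stood 11 of 35 members, against 3.5% of all genes, and edgeR called 0 members and 0% of all genes. For anti-PD-1 the median difference was 0.12, with Adm (1.04 ± 0.74), Pfkp (-0.41 ± 0.3) and Pdk1 (0.52 ± 0.42) first and 0 members at an unadjusted p under 0.05 against 3.34% of all genes. For EPAT it was 0.18, with Adm (1.47 ± 0.71), Pfkp (-0.38 ± 0.29) and P4ha2 (0.82 ± 0.65) first and 1 against 5.22%. EdgeR called 0% of all genes in these 2 tests too, and DESeq2 and limma-trend called 0 members in all 3.

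Other genes of the pathway were read for the combination against vehicle on day 2. Of the HIF machinery, 8 of 9 genes were tested and 5 were higher, with a median of 0.08 and none at an unadjusted p under 0.05. Hif1a, the HIF-1 alpha subunit, was at 154 ± 24.6 CPM with vehicle (SD, n = 5) and 166 ± 32.8 CPM with the combination (n = 5), a log2 fold change of 0.1 ± 0.16. In replicate 2 Hif1a was at 140 CPM, the lowest of its group. Epas1, the HIF-2 alpha subunit, was at 0.26 ± 0.43, Vhl at 0.32 ± 0.16 (adjusted p = 0.507) and Hif1an, which hydroxylates the HIF transactivation domain, at 0.18 ± 0.13. HIF activity is controlled mainly through its protein, which these RNA counts do not measure.

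Of 25 other hypoxia-induced genes, 22 were higher with the combination on day 2 (median 0.33). At an unadjusted p under 0.05 stood 9, all higher, against 10.2% of all genes. Without replicate 2, 17 were higher (median 0.15), and 4 had an unadjusted p under 0.05 against 10% of all genes, 3 of them higher. The other was Car12, a membrane carbonic anhydrase named after its values were seen, at -1.1 ± 0.48. Hmox1, heme oxygenase, was at 21.6 ± 7.9 CPM with vehicle and 79.9 ± 44.1 CPM with the combination, a log2 fold change of 1.88 ± 0.41 (adjusted p = 0.0745), and 1.81 ± 0.43 without replicate 2. Gys1, glycogen synthase, was at 1.0 ± 0.29 (adjusted p = 0.203) and 0.54 ± 0.25 without it. Of 28 other glycolytic genes, 24 were tested and 9 were higher, with a median of -0.13. Hk3, the hexokinase of myeloid cells, was at 1.37 ± 0.48, and 1.64 ± 0.46 without replicate 2, where it stood at 4.22 CPM. Ldhb, the lactate dehydrogenase subunit that favours pyruvate, was at -0.68 ± 0.24. Several genes of that list, such as Pfkm, Eno3, Pgam2 and Fbp2, are muscle genes.

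All 12 genes of a chosen list of stress response genes were higher with the combination on day 2 (median 0.4). Of them, 5 had an unadjusted p under 0.05, against 10.2% of all genes. Without replicate 2, 9 were higher (median 0.12), and 1 had an unadjusted p under 0.05 against 10% of all genes. The list joins genes of the ATF4 pathway, which induces Ddit3, with genes of the unfolded protein response such as Xbp1, Hspa5, Dnajb9 and Herpud1. Atf3, an early stress transcription factor, was at 8.4 ± 2.22 CPM with vehicle (SD, n = 5) and 23.2 ± 4.82 CPM with the combination (n = 5). Its lowest combination library (18.6 CPM) was above its highest vehicle library (10.4 CPM). The log2 fold change of Atf3 was 1.46 ± 0.33 (adjusted p = 0.0858), and 1.49 ± 0.35 without replicate 2. Trib3, a pseudokinase induced by CHOP, was at 1.26 ± 0.42, and at 0.37 ± 0.35 without replicate 2. In replicate 2 it was at 33.4 CPM, against a vehicle range of 3.43 to 6.6 CPM. No gene of the 4 lists passed the test, whose background is the 0% given above. With anti-PD-1 alone the same 4 lists had medians between -0.04 and 0.05, and with EPAT alone between -0.16 and 0.03.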

How the data were processed

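Bulk tumour RNA was sequenced as 39 QuantSeq 3' libraries. The deposited counts are raw reads per gene, made with bcl2fastq, STAR and featureCounts on mm10/GRCm38 per the submitters' processing notes, which also name limma. How strand and multimapping reads were handled is not given in the sources used here. The deposited log2 values cover 16095 genes and were used only for limma-trend. Groups came from the treatment and time point labels. Of 39179 genes, 15070 passed edgeR's filterByExpr (minimum count 10, minimum total 15). EdgeR 4.0.16 in R 4.3.3 (TMM scaling, robust quasi-likelihood F test, 8 groups, 31 residual degrees of freedom) tested 19 comparisons, with Benjamini-Hochberg adjustment over all genes and a threshold of 0.05. Standard errors are the log2 fold change over the root of F. Total counts of 8385741 to 15558113 set the precision, and the script was tested on simulated data. Alternatives were other scalings, no filter, DESeq2 1.42.0, limma-trend (limma 3.58.1), only the compared libraries, each library left out, a muscle covariate, a split by lung transcripts and a replicate block. The named genes are the members with the smallest p in each comparison and 7 genes given in every library (Ndrg1, Pfkp, Ddit3, Hk2, Vegfa, Slc2a1 and Ldha), with leading genes of the other lists. Members and lists were chosen with earlier results of these data known.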

Additional observations from a re-analysis of the deposited data

Results flagged for a closer look

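In each group of 4 or 5 libraries, the gap between an extreme library and its nearest neighbour was compared with the range of the group (Dixon's ratio). Of 280 gene-by-group sets, 28 (10.0%) passed the 95% critical value, where chance gives about 1 in 20 of independent sets. Members vary together between libraries, so these sets are not independent, and the share is a description. Of the 28, 13 belonged to combination day 2 replicate 2, so 13 of 35 members (37.1%) stood far from the others in that group, against 4.52% of all tested genes. Its levels were 266 CPM for Slc2a1, 277 CPM for Slc16a3, 18.2 CPM for Car9, 153 CPM for Eno1 and 46.4 CPM for Ankrd37. They were 240 CPM for Vegfa, 56.2 CPM for Adm, 142 CPM for Bnip3l, 203 CPM for P4ha1 and 124 CPM for P4ha2. Ero1l was at 450 CPM, Ndrg1 at 401 CPM and Hilpda at 188 CPM.

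The other 15 sets were spread over 8 libraries. In EPAT day 5 replicate 3, Gapdh (41.3 CPM), Pgk1 (13.9 CPM) and Egln1 (131 CPM) were far above their group and Aldoc (1.98 CPM) far below. In anti-PD-1 day 2 replicate 3, Pfkfb4 (11.6 CPM), Pkm (1010 CPM) and Adm (7.16 CPM) were far above. Anti-PD-1 day 5 replicate 5 was far above for Car9 (6.71 CPM) and Egln3 (31.8 CPM), and EPAT day 2 replicate 1 for Pgk1 (11.2 CPM) and P4ha1 (81.2 CPM). Single sets were Slc2a3 in vehicle day 5 replicate 3 (9.38 CPM, high), Pfkp in vehicle day 2 replicate 4 (56.4 CPM, high), Aldoc in vehicle day 5 replicate 1 (2.43 CPM, low) and Bnip3l in anti-PD-1 day 2 replicate 4 (66.8 CPM, low). No test of a differing effect passed for a member (edgeR, lowest adjusted p = 0.423).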

How the results depend on the processing

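With DESeq2, 7 members were called for combination against vehicle on day 2, against 0.564% of all genes. It called 5 for combination against EPAT on day 2 (0.133%) and 2 for the combination between days (0.226%). DESeq2 was not run without combination day 2 replicate 2. The muscle covariate called 1 member for combination against vehicle on day 2, against 0.0133% of all genes. Leaving out each library gave 0 to 2 called members and medians of 0.29 to 0.70 for combination against vehicle on day 2. The fits that called members there called 0.0133% and 0.0199% of all genes. Against EPAT it gave 0 to 1 with medians of 0.36 to 0.86, against 0.00664% of all genes. It gave 0 to 1 called against vehicle on day 5, where the fit with a call called 1.36% of all genes. Medians were -0.68 to -0.18 for the combination between days, and -0.79 to -0.30 for its effect between days. The low ends on day 2, and the ends nearest 0 between days, came without combination day 2 replicate 2. Within libraries with lung transcripts, medians on day 2 were 0.13 against vehicle, 0.14 against anti-PD-1, 0.23 against EPAT and 0.29 for the interaction. They were -0.42 for combination against EPAT on day 5, -0.14 for the combination between days and -0.22 for its effect. Within libraries without them, the values were 1.12 against vehicle and 1.03 against EPAT on day 2, -1.05 between days, -1.19 for the combination effect and -0.12 for the EPAT effect. All but the EPAT effect rest on the same few combination day 2 libraries, replicate 2 among them. On day 2, 3 of 5 combination libraries and 4 of 5 EPAT libraries had lung transcripts. The split therefore cannot separate lung content from replicate 2, and the cause of the difference was not tested. For combination against vehicle on day 2, Aldoc (-0.06) turned to 0.15 with the muscle covariate and ranged from -0.20 to 0.13 over left-out libraries, where 0.09, 0.06 and 0.13 were positive. Leaving out each library gave -0.01 to 0.25 for Tpi1, -0.01 to 0.34 for Pgam1, -0.15 to 0.69 for Egln3, -0.11 to 0.24 for Kdm3a, -0.26 to 0.27 for Vegfa and -0.12 to 0.13 for Bnip3l, each lowest without replicate 2. With the title number as a replicate block the median was 0.56 and 0 members were called in all 19 comparisons. The block rests on a number only, since same-numbered libraries had a median correlation of deviations of 0.011 over 133 pairs, against -0.006 over 532 others. Chosen after seeing the data, members without a near-identical copy gave a median of 0.67.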
